A study of Saccharomyces cerevisiae with 18 samples.

Results

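The 34 genes described here are budding yeast autophagy genes: 32 genes with ATG names, with VPS30 (ATG6) and SNX4 (ATG24). They were chosen by open reading frame name, and the list does not hold every ATG gene: ATG38, ATG41 and ATG42 are outside it and were read with further lists. All 34 were found among the 7126 identifiers of both deposited count tables, and all 34 passed the low-count filter of every comparison. Their counts ranged from 8 to 3855 per library, with a median of 297.

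The series measured polyadenylated RNA of Saccharomyces cerevisiae from 18 cultures grown in YPD, a rich medium, to exponential phase. Salt cultures received 0.4 M NaCl for 15 min and basal cultures received none. Experiment 1 held wild-type cells (WT), 3 basal and 3 salt libraries. Experiment 2 held WT and a strain labelled hog1::KAN (HOG1-KO), in which a drug resistance cassette replaces HOG1, each with 3 basal and 3 salt libraries. HOG1 encodes the mitogen-activated protein kinase that answers high osmolarity. The labels give BY4741, a laboratory strain of mating type a, as the WT strain, and name no other allele. The sources used here do not give how many HOG1-KO clones were used. The comparisons ask how salt changes the transcripts of autophagy genes and whether that change differs without HOG1.

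Autophagy encloses cytoplasm in a double membrane and delivers it to the vacuole for breakdown. The Atg1 kinase complex starts the process, Atg9 vesicles and the Atg2 lipid transfer protein supply membrane, a phosphatidylinositol 3-kinase complex marks it, and a pair of conjugation systems attach the ubiquitin-like Atg8 to lipid. Receptors such as Atg19, Atg32, Atg36, Atg39 and Atg40 tie chosen cargo to Atg8. In growing yeast the same machinery serves the cytoplasm-to-vacuole targeting (Cvt) pathway, which delivers vacuolar hydrolases, and nutrient starvation is the best known inducer of autophagy.

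Total counts per library ranged from 11135883 to 16527859. HOG1 itself had 2559 to 4808 counts in each WT library of experiment 2, and the 6 HOG1-KO libraries together held 1 count. Genes deleted in BY4741 went against the label in experiment 1: LEU2, MET17 and URA3 had 168 to 6434 counts in every library there, against 0 to 2 counts in every library of experiment 2. The fourth marker, HIS3, was read in all libraries, with 6474 to 12099 counts in experiment 1 and 397 to 1167 in experiment 2. The strain background, the library kit and the experiment therefore cannot be told apart, and the experiments were fitted apart except where their responses were compared. Summed transcripts of 5 a-cell genes were 856 to 5015 CPM, against 52.2 to 144 CPM for 4 alpha-cell genes. Most of the latter was SAG1, with 597 to 1741 counts in every library, while MF(ALPHA)1 had at most 9. The WT basal replicate 1 and WT salt replicate 2 of experiment 2 stood apart from the other replicates, and what set them apart was shared: the deviation of one correlated with that of the other at 0.831 over 5859 genes. The counts of called genes in experiment 2 are given with and without them, or as a range of settings. Each library came from a whole culture, so a change in the number of cells that express a gene and a change in RNA per cell cannot be told apart.

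Upstream sequences of 8 genes, chosen after their values were seen, are shown first, so that their motifs can be read beside the responses. ATG2, ATG7, ATG9 and ATG29 had the strain differences that held with a replicate block, ATG39 and ATG8 the largest rises in WT, ATG14 the largest rise in HOG1-KO after ATG39, and ATG19 the lowest adjusted p in experiment 1. Each is the 250 bases before the start codon, 5′ to 3′ on the strand of the gene, from the RefSeq R64 genome. ATG8 (YBL078C) encodes the ubiquitin-like protein of the autophagosome (chrII:80732-80981, minus strand). ATG29 (YPL166W) encodes a subunit of the Atg17 scaffold (chrXVI:237088-237337, plus strand). ATG9 (YDL149W) encodes the membrane protein of the vesicles that seed the autophagosome (chrIV:184675-184924, plus strand). ATG19 (YOL082W) encodes the receptor of the Cvt pathway (chrXV:168477-168726, plus strand), and ATG39 (YLR312C) a receptor for perinuclear endoplasmic reticulum (chrXII:758834-759083, minus strand). ATG14 (YBR128C) encodes the subunit that directs the lipid kinase complex to autophagy (chrII:494116-494365, minus strand). ATG2 (YNL242W) encodes the lipid transfer protein (chrXIV:191074-191323, plus strand), and ATG7 (YHR171W) the activating enzyme of both conjugation systems (chrVIII:445463-445712, plus strand). Capitals mark exact matches on either strand to the stress response element STRE (AGGGG), the URS1 core bound by Ume6 (GCCGCC), the Gcn4 site (TGACTC) and the CRE core bound by Sko1 (TGACGT).
ATG8: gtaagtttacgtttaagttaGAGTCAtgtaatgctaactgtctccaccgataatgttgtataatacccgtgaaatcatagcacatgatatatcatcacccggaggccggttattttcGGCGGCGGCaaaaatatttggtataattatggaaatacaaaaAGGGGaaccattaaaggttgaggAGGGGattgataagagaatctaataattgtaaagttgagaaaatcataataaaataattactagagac
ATG29: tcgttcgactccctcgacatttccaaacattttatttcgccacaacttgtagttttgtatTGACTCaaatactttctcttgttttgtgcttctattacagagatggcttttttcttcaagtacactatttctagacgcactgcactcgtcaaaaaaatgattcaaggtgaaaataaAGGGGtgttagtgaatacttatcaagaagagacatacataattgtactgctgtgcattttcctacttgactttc
ATG9: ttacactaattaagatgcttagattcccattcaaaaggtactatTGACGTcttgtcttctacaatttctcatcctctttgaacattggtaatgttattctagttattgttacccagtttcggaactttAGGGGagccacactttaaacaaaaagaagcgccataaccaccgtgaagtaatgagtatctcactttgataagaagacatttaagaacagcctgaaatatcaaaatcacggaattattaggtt
ATG19: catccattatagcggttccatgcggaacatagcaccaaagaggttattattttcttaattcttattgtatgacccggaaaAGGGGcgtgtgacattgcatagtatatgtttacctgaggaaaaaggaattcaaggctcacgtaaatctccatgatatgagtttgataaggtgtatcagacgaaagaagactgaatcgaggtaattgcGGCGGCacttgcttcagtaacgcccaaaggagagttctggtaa
ATG39: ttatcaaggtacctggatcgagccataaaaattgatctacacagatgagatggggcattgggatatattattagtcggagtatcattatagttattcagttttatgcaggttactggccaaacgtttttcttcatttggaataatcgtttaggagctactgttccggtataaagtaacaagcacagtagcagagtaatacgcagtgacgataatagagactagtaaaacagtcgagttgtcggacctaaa
ATG14: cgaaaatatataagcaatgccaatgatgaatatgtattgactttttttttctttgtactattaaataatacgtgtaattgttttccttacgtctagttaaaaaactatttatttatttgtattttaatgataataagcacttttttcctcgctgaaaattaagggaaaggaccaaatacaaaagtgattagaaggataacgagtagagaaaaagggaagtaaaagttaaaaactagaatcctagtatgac
ATG2: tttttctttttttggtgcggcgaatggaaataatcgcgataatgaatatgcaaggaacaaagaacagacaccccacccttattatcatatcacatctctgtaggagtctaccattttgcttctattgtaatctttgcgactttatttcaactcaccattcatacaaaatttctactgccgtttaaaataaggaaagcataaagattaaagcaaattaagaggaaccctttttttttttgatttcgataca
ATG7: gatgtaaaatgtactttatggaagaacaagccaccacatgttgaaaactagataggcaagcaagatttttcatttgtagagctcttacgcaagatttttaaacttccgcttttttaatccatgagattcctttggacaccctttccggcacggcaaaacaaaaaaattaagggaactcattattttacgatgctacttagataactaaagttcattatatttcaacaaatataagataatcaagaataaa

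The ATG8 sequence held STREs that start at -91 and -68 from the start codon, a Gcn4 site at -230, and URS1 cores at -133 and -130 that overlap each other. ATG29 held a STRE at -74 and a Gcn4 site at -190, ATG9 a STRE at -122 and a CRE core at -206, and ATG19 a STRE at -170 and a URS1 core at -43. ATG39, ATG14, ATG2 and ATG7 held no match in their windows. Over the 34 genes, in windows that also take in the first 50 bases of the coding sequence, 26.5% held a STRE against 21.6% of the windows of all 5987 genes. The URS1 core was in 5.88% of the autophagy genes and 5.14% of all genes, the Gcn4 site in 17.6% and 8.00%, and the CRE core in 5.88% and 7.57%. In experiment 2, the 9 autophagy genes with a STRE had a median log2 salt change of 1.51 in WT and 0.96 in HOG1-KO, against 1.08 and 0.85 for the 25 without one. A smaller salt response in HOG1-KO, described further on, was called for 2 of the 9 and 5 of the 25, where 5.24% of all genes were. VPS30 is among the 9 only by a match at 24, inside its coding sequence. The Gcn4 share also counts ATG10, with a match at 44 inside its coding sequence, and ATG13, whose match at -5 runs into the start codon. These shares and medians are descriptions without a test.

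All 34 genes have 1 coding exon, and they lie on 13 of the 16 chromosomes. Only ATG29 overlaps another annotated gene: its last 24 bp are shared with SET6 on the opposite strand. The 3 libraries of a group held between 8 and 56 SET6 counts in sum. No source used here says whether counting used the strand, so reads of a gene and of an antisense transcript cannot be told apart for any of the 34.

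Before salt, autophagy transcripts spanned a wide range of levels (the plot of levels per kb). Levels are CPM, read counts scaled to library size with TMM factors, and between genes they are compared as CPM per kb of coding sequence. In experiment 1 WT basal cells, the highest level was that of ATG27 (YJL178C; chrX:89282-90097), which encodes a membrane protein of Atg9 traffic, at 193 CPM per kb. ATG5 (YPL149W), whose product is the target of Atg12 in the second conjugation system, followed at 63.6 CPM per kb, and ATG33, needed for mitophagy, at 61.0 CPM per kb. The ranges of ATG27 and ATG5 were separate, whereas those of ATG5 and ATG33 overlapped. The lowest levels were those of ATG14 at 3.20 and ATG39 at 2.28 CPM per kb. Of the 33 pairs of neighbours in the order of levels, 7 had ranges of their 3 libraries that did not overlap in basal cells and 6 in salt cells. In salt, ATG33 led at 184 CPM per kb, followed by ATG19 at 150 and ATG27 at 138, and ATG10 was lowest at 5.15. In experiment 2, 5 neighbouring pairs were separate in WT basal cells, 2 in WT salt, 6 in HOG1-KO basal and 9 in HOG1-KO salt.

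**Figure D1:**
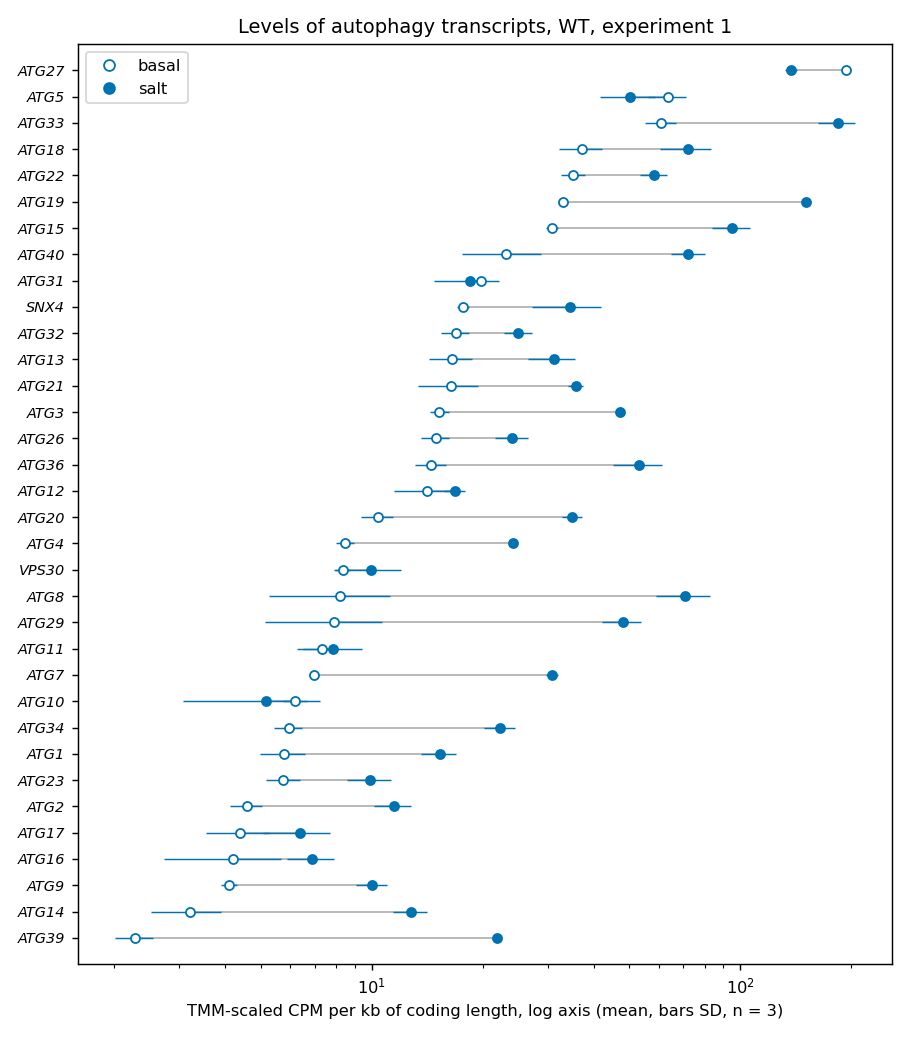
Level of each autophagy transcript in WT cells of experiment 1, as the mean TMM-scaled CPM per kb of coding length (log axis; bars are SD of 3 libraries), open before and filled after salt. ATG27 stood highest before salt at 193 CPM per kb, and ATG39 moved from the lowest level, 2.28 CPM per kb, to 21.8.

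In WT cells, salt raised most autophagy transcripts. Summed over the 34 genes, the level went from 855 ± 16.4 CPM (SD, n = 3) to 1744 ± 28.2 in experiment 1 and from 808 ± 45.0 to 1509 ± 43.0 in experiment 2. In experiment 1, 27 of 34 genes rose and 2 fell (edgeR's quasi-likelihood test, adjusted p under 0.05), where 35.4% of all 5878 genes rose and 33.8% fell. In experiment 2, 24 rose and 1 fell, where 30.1% of all 6107 genes rose and 27.2% fell. Rises of at least 2-fold were called for 18 genes in experiment 1 and 20 in experiment 2, against 15.7% and 16.3% of all genes. The median log2 change of the 34 genes was 1.21 and 1.18, against 0.02 and 0.04 over all genes. The 3 salt libraries lay above the 3 basal libraries for 25 genes in experiment 1 and below them for 1, where 36.8% and 34.6% of all genes did so. In WT of experiment 2 these counts were 23 and 1, against 29.1% and 25.9%. Without the deviating libraries of experiment 2, 25 rose and 1 fell, against 32.6% and 31.7% of all genes, 20 rose at least 2-fold, against 16.3%, and the libraries were apart for 30 and 1, against 41.7% and 39.2%.

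**Figure D2:**
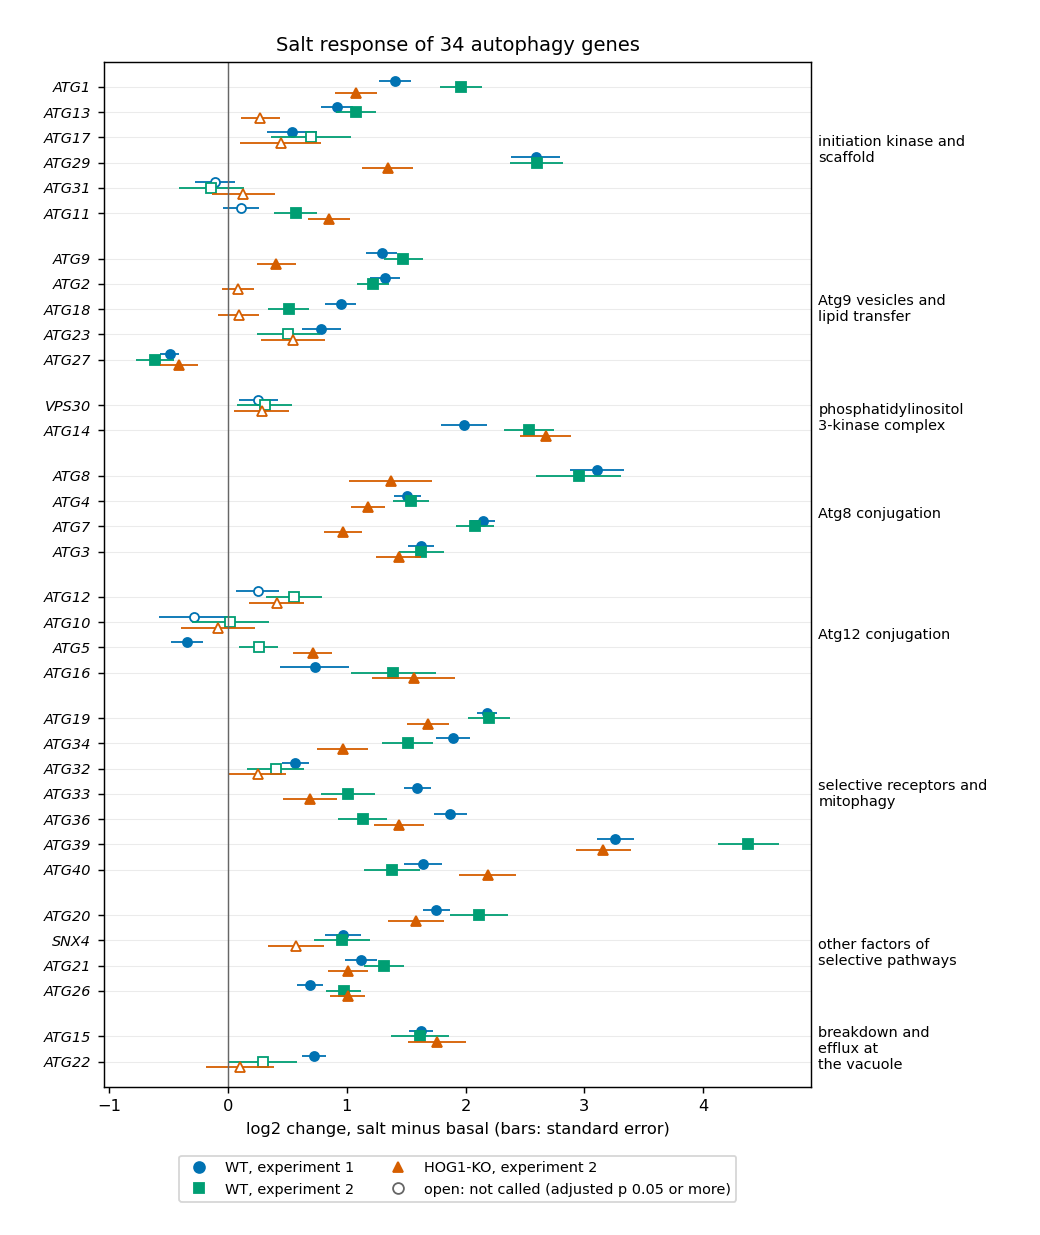
Log2 change in salt of each of the 34 genes, grouped by role, in WT of experiment 1 (circles), WT of experiment 2 (squares) and HOG1-KO (triangles). Bars are standard errors and open symbols are genes not called by edgeR; ATG39 and ATG8 lie farthest to the right in WT, and ATG27 lies left of 0 in all 3.

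Each of the 4 Atg8 conjugation genes rose in both experiments, where 35.4% and 30.1% of all genes did. ATG8 stood at 2.14, 2.48 and 4.10 CPM before salt and at 21.6, 29.7 and 24.0 CPM after it in experiment 1. In experiment 2, WT values were 6.61, 3.27 and 3.32 CPM before and 24.0, 56.9 and 22.4 CPM after salt. The groups did not overlap in either experiment, and the highest value, 56.9 CPM, came from one of the deviating libraries. The log2 change was 3.11 ± 0.23 (standard error) in experiment 1 and 2.95 ± 0.36 in experiment 2, with edgeR adjusted p of 1.1e-07 and 4.21e-06. ATG7 (chrVIII:445713-447605), the E1-like enzyme that activates both Atg8 and Atg12, went from 13.1, 13.0 and 13.4 CPM to 60.9, 57.1 and 57.1 CPM in experiment 1. Its log2 change was 2.15 ± 0.11 there and 2.08 ± 0.16 in experiment 2. ATG3, the E2-like enzyme of Atg8, and ATG4, the protease that trims Atg8 and frees it from lipid, rose by 1.62 and 1.51 in experiment 1 and by 1.63 and 1.54 in experiment 2, on the log2 scale.

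The Atg12 conjugation system did not move as one. ATG16, whose product binds Atg5 and joins the conjugate into a larger complex, rose by 0.73 ± 0.29 in experiment 1, where its groups overlapped, and by 1.39 ± 0.36 in experiment 2, where they did not. It was a low transcript, with 1.01 to 6.01 CPM over all WT libraries of experiment 2, and its call in experiment 1 was lost without basal replicate 1 or 3 or salt replicate 2 or 3 (adjusted p from 0.0889 to 0.145) and with replicate number added to the model as a block (0.0557). ATG5 had 57.5, 49.1 and 62.4 CPM before and 52.1, 43.7 and 37.2 CPM after salt in experiment 1. These groups overlapped, and the fall by 0.35 on the log2 scale was called narrowly (edgeR adjusted p = 0.037); it was lost without basal replicate 1 or 3 or salt replicate 2 or 3, with adjusted p from 0.0734 to 0.152, and with the block (0.0534). In WT of experiment 2 ATG5 was not called, at 0.26 ± 0.17. The ubiquitin-like ATG12 (0.25 and 0.56) and ATG10, its E2-like enzyme (-0.29 and 0.02), were not called in either experiment; without WT basal replicate 1 or WT salt replicate 1 of experiment 2, ATG12 was called there (adjusted p = 0.0196 and 0.0193).

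Among the initiation factors, 4 of 6 were called higher in each experiment, against 35.4% and 30.1% of all genes. ATG1 (YGL180W; chrVII:160065-162758), the kinase itself, went from 18.0, 14.3 and 14.3 CPM to 36.3, 42.3 and 45.0 CPM in experiment 1, and from 16.2, 9.49 and 14.0 CPM to 53.1, 52.9 and 49.8 CPM in WT of experiment 2. Neither pair of groups overlapped, and the log2 changes were 1.40 ± 0.14 and 1.96 ± 0.18. ATG29 went from 7.04, 3.63 and 4.51 CPM to 31.6, 33.97 and 26.7 CPM in experiment 1, and its rise of 2.59 ± 0.21 was the largest of the group. In experiment 2 it rose by 2.60 ± 0.22. ATG13 (YPR185W), the regulatory partner of the kinase and a target of TORC1, rose by 0.92 and 1.08. The scaffold subunits ATG17 and ATG31 did not follow ATG29: ATG17 was called in experiment 1 (0.54, adjusted p = 0.0397, groups overlapping) but not in experiment 2 (0.70, adjusted p = 0.0871). Leaving out single libraries moved both: without basal replicate 1 or 3 or salt replicate 2 or 3 the call in experiment 1 was lost (adjusted p from 0.0669 to 0.17), and without WT basal replicate 1 or WT salt replicate 3 it was gained in experiment 2 (0.0304 and 0.0265). ATG31 was called in neither experiment, at -0.11 and -0.14. ATG11, the scaffold of selective autophagy, was called in experiment 2 (0.57; lost without WT basal replicate 2 or WT salt replicate 3, adjusted p = 0.0562 and 0.076) and not in experiment 1 (0.11). The difference between experiments was not called for it (adjusted p = 0.468).

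Of the Atg9 vesicle and lipid transfer genes, ATG9 and ATG2 (chrXIV:191324-196102) rose by 1.30 and 1.32 in experiment 1 and by 1.48 and 1.22 in experiment 2. ATG18, a phosphoinositide-binding partner of Atg2, rose by 0.95 and 0.51, and in experiment 2 its groups overlapped and the call was lost without WT basal replicate 1 or WT salt replicate 1 or 3 (adjusted p from 0.0633 to 0.093) and with the block (0.0564). ATG23, a peripheral protein of Atg9 traffic, was called in experiment 1 only (0.78, against 0.51 with adjusted p = 0.115 in experiment 2, or 0.0214 without WT basal replicate 1). ATG27 moved the other way: its values were 162, 156 and 155 CPM before and 114, 115 and 107 CPM after salt in experiment 1. In experiment 2 they were 181, 234 and 206 CPM before and 141, 111 and 153 CPM after. Groups were apart in both, and ATG27 fell by 0.49 and 0.62 on the log2 scale. It was the one gene of the 34 that was called lower in salt in both experiments, and also the most abundant per kb before salt.

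In the phosphatidylinositol 3-kinase complex, the subunit specific to autophagy and the shared subunit differed. ATG14 went from 4.04, 3.28 and 2.62 CPM to 12.7, 14.8 and 12.1 CPM in experiment 1 and rose by 1.99 ± 0.20 there and by 2.53 ± 0.21 in experiment 2. VPS30, which also serves vacuolar protein sorting, had 13.2, 14.2 and 14.5 CPM before and 12.9, 19.6 and 17.5 CPM after salt, overlapping ranges, and was not called in either experiment (0.26 and 0.31). It was called without WT salt replicate 1 of experiment 1 (adjusted p = 0.0219) or WT basal replicate 1 of experiment 2 (0.0443).

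All 7 receptor and mitophagy genes rose in experiment 1, and 6 of 7 in experiment 2, where 35.4% and 30.1% of all genes did. ATG39 had the largest change of the 34 genes in both. Its values were 2.53, 3.10 and 2.54 CPM before and 25.5, 26.4 and 26.6 CPM after salt in experiment 1. In experiment 2 they were 0.905, 0.873 and 0.793 CPM before and 17.01, 15.8 and 21.4 CPM after. The groups were far apart in both experiments, with log2 changes of 3.26 ± 0.16 and 4.38 ± 0.26 (edgeR adjusted p of 2.23e-09 and 9.78e-10). ATG19 went from 41.9, 39.7 and 42.1 CPM to 187, 191 and 185 CPM in experiment 1, a rise of 2.18 ± 0.08, and by 2.20 ± 0.18 in experiment 2. Its relative ATG34, a receptor for alpha-mannosidase in starved cells, rose by 1.90 and 1.51. ATG36, the pexophagy receptor, ATG40 (YOR152C), a receptor for cortical endoplasmic reticulum, and ATG33 rose by 1.87, 1.64 and 1.59 in experiment 1 and by 1.13, 1.38 and 1.01 in experiment 2. ATG32, the mitophagy receptor, rose by 0.57 in experiment 1 and was not called in experiment 2 (0.40, adjusted p = 0.168); without the deviating libraries its change was 0.46 and called (adjusted p = 0.0116), as it was without WT salt replicate 2 alone (0.0139).

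ATG20, SNX4, ATG21 and ATG26, grouped in the plots as other factors of selective pathways, rose in both experiments. Their rises were 0.69 to 1.75 in experiment 1 and 0.96 to 2.12 in experiment 2. The group name is a label and does not show that each gene, ATG26 among them, acts in such a pathway. The sorting nexin ATG20 led, and its partner SNX4 rose by 0.97 and 0.96. At the vacuole, ATG15 (YCR068W), the lipase that breaks down autophagic bodies, went from 49.1, 46.2 and 49.3 CPM to 168, 133 and 145 CPM in experiment 1 and rose by 1.62 ± 0.10 there and 1.61 ± 0.25 in experiment 2. ATG22, a vacuolar amino acid exporter, rose by 0.73 in experiment 1 and was not called in experiment 2 (0.30, adjusted p = 0.389). In the latter, the deviating basal library held 18.7 CPM of ATG22 against 37.3 and 40.7, and the deviating salt library 22.5 CPM against 50.4 and 46.3.

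The WT responses of the experiments were then compared directly. None of the 34 genes was called different (0 higher and 0 lower, with edgeR and with DESeq2), where edgeR called 1.53% and 1.05% of all 6092 genes. With edgeR, 3 members had an unadjusted p under 0.05, as had 1004 of all 6092 genes. The largest differences, experiment 2 minus experiment 1, were those of ATG39 (1.07, 95% interval 0.42 to 1.73, adjusted p = 0.0882) and ATG36 (-0.79, -1.44 to -0.14, adjusted p = 0.203). Without the deviating libraries, ATG39 was called higher (1.25) and ATG33 and ATG36 lower (-0.59 and -0.70), beside 7.44% and 5.87% of all 6113 genes. Without WT salt replicate 2 alone, ATG39 was called (1.16, adjusted p = 0.0486).

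In HOG1-KO, salt still raised most of these transcripts. Their summed level went from 802 ± 17.7 to 1308 ± 18.4 CPM. Of the 34 genes 21 rose and 1 fell, where 28.8% and 25.6% of all genes did, and 15 rose at least 2-fold, against 14.8%. The median log2 change was 0.91, against 0.02 over all genes. All 3 salt libraries lay above all 3 basal libraries for 25 genes and below them for 1, against 37.6% and 34.7% of all genes. Without the deviating WT libraries, which also set the shared estimate of the spread, 25 rose and 1 fell, against 35.4% and 33.7%, 15 rose at least 2-fold, against 15%, and the libraries were apart for 25 and 1, against 37.7% and 34.5%. ATG12, ATG13, ATG23 and SNX4 were then added to the higher ones. Adding the replicate number as a block, which matched the HOG1-KO libraries by number, ended the calls of ATG9, ATG27 and ATG33 (adjusted p = 0.0893, 0.0789 and 0.0609). Those calls also hung on single libraries: ATG9 lost its call without any 1 of 8 of the 12 libraries (adjusted p from 0.0513 to 0.18), ATG27 without HOG1-KO basal replicate 1 or 2 or salt replicate 2 or 3 (0.0754 to 0.145), and ATG33 without salt replicate 1 or basal replicate 2 (0.0654 and 0.0872).

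Rises in HOG1-KO again covered all 4 Atg8 conjugation genes and 6 of 7 receptor and mitophagy genes, against 28.8% of all genes. ATG32 was the exception (0.25, adjusted p = 0.395). ATG14 went from 1.88, 1.48 and 2.00 CPM to 11.6, 11.02 and 12.1 CPM, a rise of 2.67 ± 0.22. ATG40 went from 11.8, 7.59 and 13.2 CPM to 56.3, 44.0 and 49.2 CPM, a rise of 2.19 ± 0.24. ATG39 rose from 1.38, 2.01 and 1.11 CPM to 14.1, 13.3 and 12.4 CPM, by 3.16 ± 0.23, and ATG15 from 58.9, 76.1 and 54.4 CPM to 202, 231 and 208 CPM, by 1.76 ± 0.25. None of these groups overlapped. ATG5 rose in HOG1-KO alone of the 3 salt comparisons (0.71, adjusted p = 0.00212), but its difference from WT was not called (0.45, 95% interval -0.05 to 0.95). ATG2 and ATG18, which rose in both WT comparisons, were not called in HOG1-KO, at 0.08 and 0.09. SNX4 stood at the threshold there (0.57, adjusted p = 0.0501) with groups apart, and was called without WT basal replicate 1 or 3 or WT salt replicate 1 or 2 (adjusted p from 0.0128 to 0.0458).

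Over the 3 salt comparisons, 19 of the 34 genes rose in each, where 19.5% of the 5804 genes tested in all of them did; without the deviating libraries 21 did, against 22.2% of 5811. ATG2, ATG13, ATG18 and SNX4 were called higher in both WT comparisons and not in HOG1-KO. For ATG18 and SNX4 the difference between the strains' responses was not called (-0.42 and -0.39, edgeR adjusted p = 0.371 and 0.588). ATG17, ATG22, ATG23 and ATG32 were called higher in experiment 1 only, ATG11 in both strains of experiment 2 only, and ATG5 in HOG1-KO only. With both deviating libraries left out, ATG13 (adjusted p = 0.0433), SNX4 (0.000597) and ATG23 (0.54, adjusted p = 0.00158) were called higher in HOG1-KO as well, ATG32 was in WT of experiment 2, and ATG23 was so without WT salt replicate 2 alone (0.0171). ATG10, ATG12, ATG27, ATG31 and VPS30 were called higher in none, although ATG12 was in HOG1-KO without the deviating libraries (0.41, adjusted p = 0.026).

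The test of the difference between the strains' responses named 7 genes, all with a smaller rise in HOG1-KO: ATG1, ATG2, ATG7, ATG9, ATG13, ATG29 and ATG39. No gene of the 34 was called with a larger rise. Over all 6107 genes, 5.24% were called lower and 4.57% higher. By DESeq2 the count was 8 lower and 0 higher, with ATG8 added. The share of all genes that DESeq2 called is not given here, so its count is not read against a background. With edgeR, 9 of the 34 had an unadjusted p under 0.05, as had 1269 of all 6107 genes. The median difference over the 34 genes was -0.23, against 0.00 over all genes. With the replicate block 4 of the 7 remained called, ATG2, ATG7, ATG9 and ATG29, and with scaling by total counts alone 2 were, ATG2 and ATG7. The shares of all genes called in these settings are not given here. Replicate numbers did not pair the WT libraries of experiment 2 (same-number correlations of deviations -0.623 to 0.654). The block is therefore a limited check of this difference. Without the deviating libraries 10 were called lower and 0 higher, beside 10.4% and 9.93% of all 6150 genes, with ATG8, ATG18 and ATG34 added. The salt comparisons and this difference share the libraries of experiment 2 and are not independent of each other.

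**Figure D3:**
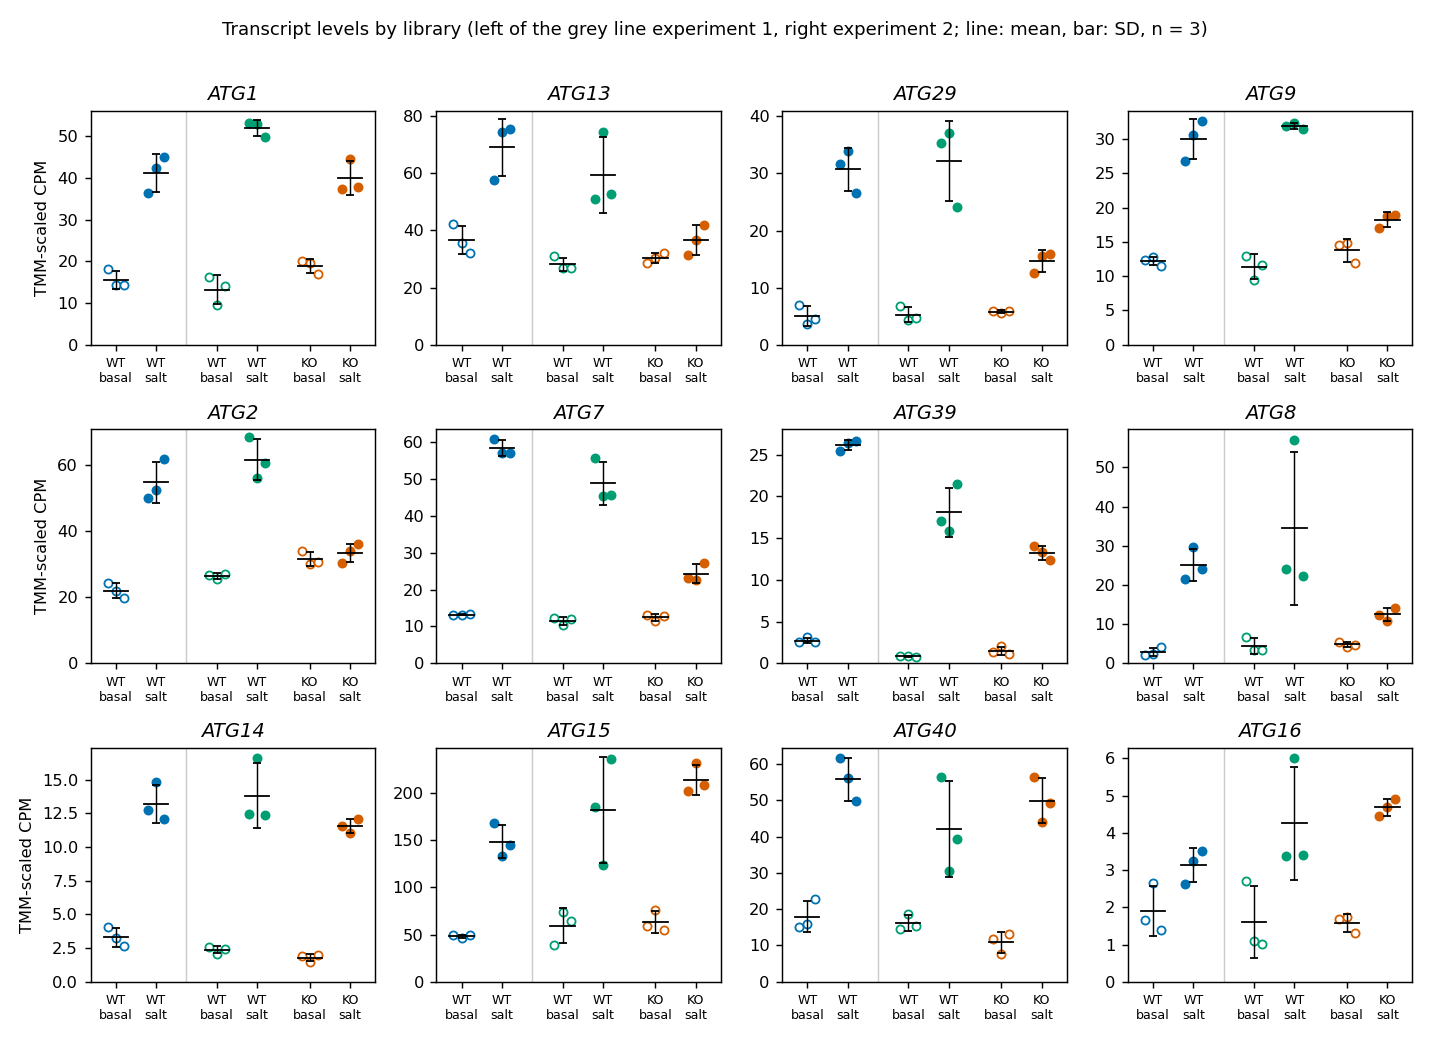
TMM-scaled CPM of 12 autophagy transcripts in each library (points), with the mean (line) and SD (bar) of 3 libraries per group. ATG1, ATG13, ATG29, ATG9, ATG2, ATG7 and ATG39 rose less in HOG1-KO by the test of the difference; for ATG8, ATG14, ATG15, ATG40 and ATG16 that difference was not called.

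ATG2 had the lowest adjusted p of the 34 genes for this difference. In WT it went from 26.7, 25.5 and 27.0 CPM to 68.3, 55.9 and 60.6 CPM, and in HOG1-KO it had 33.8, 29.9 and 30.7 CPM before and 30.4, 33.8 and 35.9 CPM after salt. The salt and basal libraries of HOG1-KO overlapped, while those of WT were far apart. The difference of the log2 responses was -1.14 ± 0.19 (edgeR adjusted p = 0.00088), and it stayed called in each of 20 alternatives. ATG9 went from 13.0, 9.49 and 11.7 CPM to 31.9, 32.3 and 31.4 CPM in WT and from 14.5, 14.9 and 11.9 CPM to 17.1, 18.7 and 19.0 CPM in HOG1-KO. Salt libraries of HOG1-KO thus lay between the basal and salt libraries of WT. The difference was -1.07 ± 0.23 (adjusted p = 0.00609); it was lost with scaling by total counts alone (adjusted p = 0.0551).

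ATG7 went from 12.4, 10.3 and 11.9 CPM to 55.6, 45.4 and 45.6 CPM in WT and from 13.0, 11.4 and 12.8 CPM to 23.1, 22.6 and 27.2 CPM in HOG1-KO. The salt groups of the strains did not overlap, and the difference of the responses was -1.11 ± 0.22 (adjusted p = 0.00349). ATG29 went from 6.75, 4.36 and 4.69 CPM to 35.3, 37.1 and 24.2 CPM in WT and from 5.95, 5.49 and 5.88 CPM to 12.5, 15.6 and 15.96 CPM in HOG1-KO. Again the salt groups were apart, with a difference of -1.25 ± 0.30 (adjusted p = 0.0139; 0.0757 with total counts alone).

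The calls of ATG1, ATG13 and ATG39 were less stable. In salt itself, ATG1 and ATG39 were not called different between the strains (edgeR adjusted p = 0.117 and 0.107). Both were called lower there without the deviating libraries (0.0396 and 0.0157). ATG1 went from 20.2, 19.5 and 17.01 CPM to 37.3, 44.6 and 37.9 CPM in HOG1-KO, and the difference from the WT response was -0.89 ± 0.25 (adjusted p = 0.0305). ATG13 went from 30.8, 26.8 and 26.9 CPM to 50.8, 74.5 and 52.8 CPM in WT. In HOG1-KO it had 28.5, 30.3 and 31.9 CPM before and 31.3, 36.4 and 41.8 CPM after salt, with overlapping groups. Its difference was -0.80 ± 0.24 (adjusted p = 0.0427). For ATG39 it was -1.22 ± 0.36 (adjusted p = 0.0426), from basal levels of 0.793 to 2.01 CPM over both strains. Of 20 alternatives, ATG1 and ATG13 each lost the call in 11 and ATG39 in 14, among them the block (adjusted p = 0.0771, 0.11 and 0.108). ATG1 lost it without any 1 of 8 single libraries and ATG39 without any 1 of 10, with adjusted p of 0.0506 to 0.0912 and 0.0518 to 0.129. ATG13 lost it without any 1 of 8, with adjusted p of 0.0626 to 0.13, and its difference was -0.55 without WT salt replicate 2.

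ATG8 had the largest difference of the 34 genes but was not called. In HOG1-KO it went from 5.45, 4.19 and 4.77 CPM to 12.4, 10.9 and 14.1 CPM, a rise of 1.37 ± 0.35, below each of the 3 WT salt libraries. The difference from WT was -1.58 ± 0.49 (95% interval -2.64 to -0.53, adjusted p = 0.0573). It was called with DESeq2 (adjusted p = 0.0152) and without the deviating libraries (-1.45, adjusted p = 0.000651). Single libraries decided it: without WT basal replicate 1, WT salt replicate 1 or WT salt replicate 3 it was called at -2.02, -1.79 and -1.82, and without WT salt replicate 2, the library with the highest ATG8 level, the difference was -0.95 (adjusted p = 0.0643).

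For other genes with clear salt responses the difference between strains was not called, which does not show that the strains respond alike. The difference was 0.14 for ATG14 (95% interval -0.50 to 0.78), 0.14 for ATG15 (-0.58 to 0.87), -0.19 for ATG3 (-0.75 to 0.37), 0.17 for ATG16 (-0.90 to 1.24) and 0.04 for ATG26 (-0.41 to 0.48). ATG40 lay farthest on the other side, at 0.80 (0.11 to 1.502, adjusted p = 0.159). Without WT salt replicate 1, which held its highest WT value of 56.4 CPM, ATG40 was called with a larger rise in HOG1-KO (1.07, adjusted p = 0.0388), as was ATG5 (0.68, adjusted p = 0.0449).

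**Figure D4:**
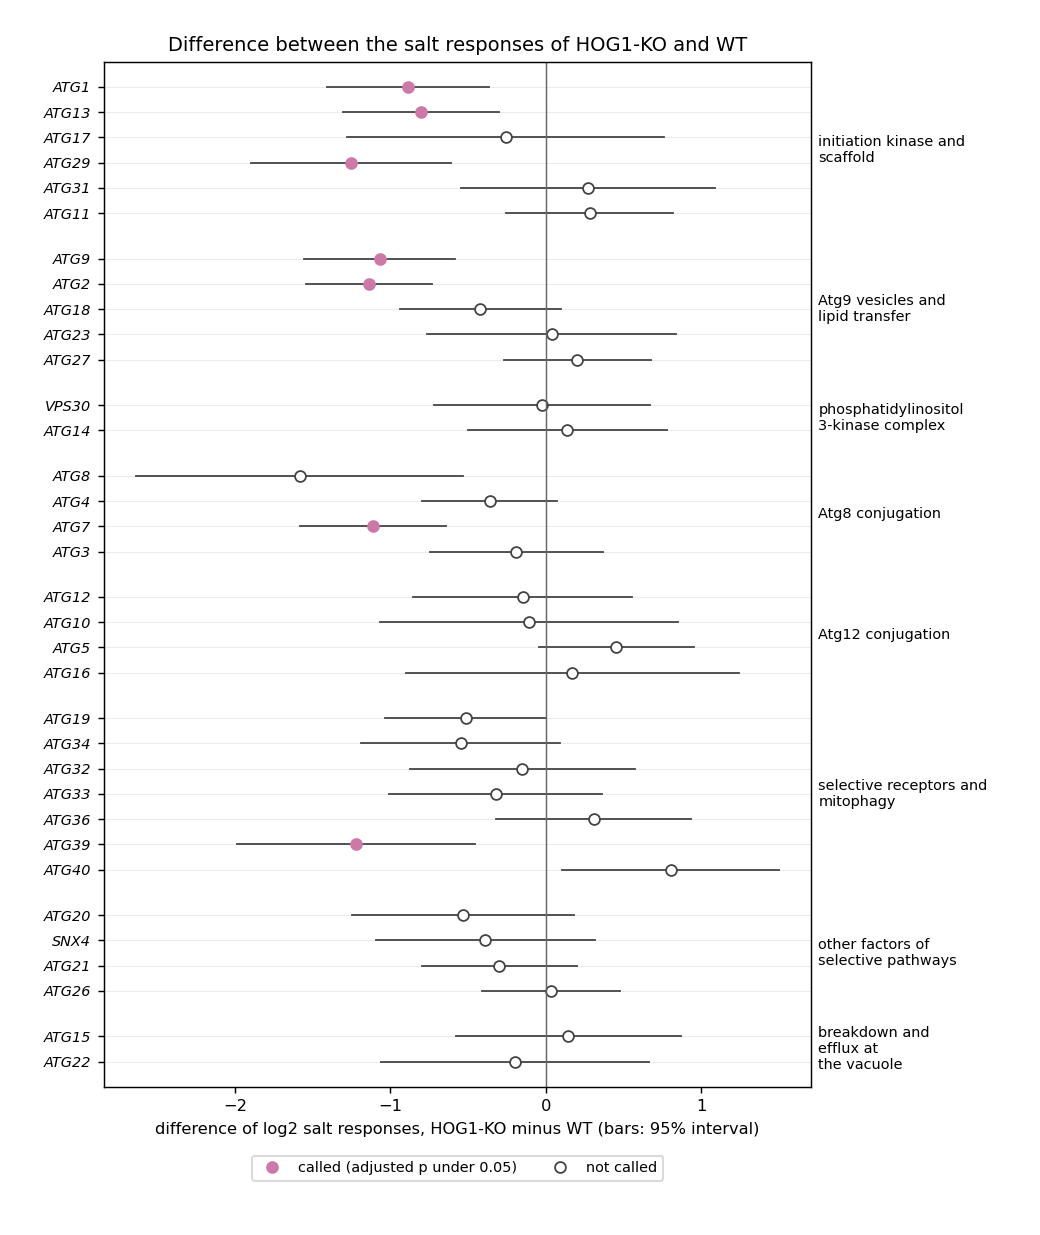
Difference between the log2 salt responses of HOG1-KO and WT for each gene by role (bars are 95% intervals), filled where edgeR called it. The 7 called genes lie left of 0, ATG8 lies farthest left at -1.58 with an interval of -2.64 to -0.53, and ATG40 farthest right at 0.80.

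By role, the called differences fell in 4 of the 8 groups. They were 3 of 6 initiation factors, 2 of 5 Atg9 vesicle and lipid transfer genes, 1 of 4 Atg8 conjugation genes and 1 of 7 receptor and mitophagy genes, where 5.24% of all genes were called lower. In the fit that left out those libraries they were 3 of 6, 3 of 5, 2 of 4 and 2 of 7, where 10.4% of all genes were. In neither case was one among the phosphatidylinositol 3-kinase subunits, the Atg12 conjugation genes, the group of ATG20, SNX4, ATG21 and ATG26 or the vacuolar pair. These groups hold 12 genes together. The groups were not tested against each other.

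Before salt, no autophagy gene was called different between the strains. With edgeR and with DESeq2, 0 were called higher and 0 lower, where edgeR called 0.475% and 0.508% of all genes. With edgeR, 3 autophagy genes had an unadjusted p under 0.05, as had 655 of all 6107 genes. These 3 autophagy genes were ATG1 (0.51), ATG39 (0.78) and ATG40 (-0.56). The libraries of the strains did not overlap for 5 genes that were higher and 3 that were lower in HOG1-KO, against 9.87% and 7.14% of all genes. Leaving out the deviating libraries, these counts were 15 and 6, against 26.9% and 22.4%. Without the deviating libraries, ATG1 was called higher in HOG1-KO (0.66) and ATG22, ATG33 and ATG36 lower (-0.47, -0.49 and -0.59), beside 5.72% and 11.4% of all genes.

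In salt, 7 genes were lower in HOG1-KO than in WT and 1 was higher, where 12.4% and 12.8% of all genes were. The lower ones were ATG8 (-1.47 ± 0.33), ATG29 (-1.13 ± 0.20), ATG7 (-1.01 ± 0.15), ATG2 (-0.88 ± 0.13), ATG9 (-0.80 ± 0.16), ATG13 (-0.70 ± 0.17) and ATG19 (-0.54 ± 0.17). The value of ATG8 rested on WT salt replicate 2: without it the difference was -0.87. It was called in all 21 alternatives (adjusted p of 0.000119 to 0.0269). ATG11 was the higher one (0.58, adjusted p = 0.0236), with overlapping groups, and was lost without WT salt replicate 1 or HOG1-KO salt replicate 2 or 3 (adjusted p from 0.09 to 0.113) and with only the libraries compared (0.0582). With scaling by total counts alone, ATG13 (-0.55, adjusted p = 0.112) and ATG19 (-0.39, adjusted p = 0.27) were no longer called. The call of ATG19 was also lost with the block (0.0501) and without WT salt replicate 2 (-0.33) or any 1 HOG1-KO salt library (0.0512 to 0.101). All 3 HOG1-KO salt libraries lay below all 3 WT salt libraries for 13 of the 34 genes and above them for 0, where 18% and 20.5% of all genes did. The median difference was -0.33, against -0.02 over all genes, and -0.13 without WT salt replicate 2. Without the deviating libraries 15 were called lower and 2 higher, beside 23.4% and 24.2%, and the strains were apart for 18 lower and 5 higher, against 32% and 35.5%.

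Other genes of the pathway were read from 5 lists outside the 34, and each count stands against the shares of all genes above. In experiment 1, 35.4% rose and 33.8% fell. The shares were 30.1% and 27.2% in WT of experiment 2, and 28.8% and 25.6% in HOG1-KO. Counts without the deviating libraries stand against 32.6% and 31.7% in WT of experiment 2, and 35.4% and 33.7% in HOG1-KO. Of 13 vacuolar hydrolases and Cvt cargo proteins, 12 rose in experiment 1, 9 in WT of experiment 2 and 5 in HOG1-KO, or 92.3%, 69.2% and 38.5%, and none fell. In the fit that left out the deviating libraries, 11 rose in WT and 0 fell, and 10 rose and 1 fell in HOG1-KO. Among them, ATH1, the vacuolar acid trehalase, rose by 3.02, 3.24 and 2.31 in these comparisons. APE1, the aminopeptidase that is the main Cvt cargo and is bound by Atg19, rose by 2.61, 2.92 and 2.00. AMS1, the alpha-mannosidase carried by the same route, rose by 1.99, 2.31 and 1.09, and PRB1, the vacuolar proteinase B, by 2.52, 1.90 and 1.78. The responses of ATH1, APE1 and AMS1 were smaller in HOG1-KO (differences of -0.93, -0.93 and -1.23, edgeR adjusted p of 0.0176, 0.00407 and 0.0131), and no other gene of this list was called for that difference, so 3 of 13 (23.1%) were against 5.24% of all genes. When the deviating libraries were left out, 6 of 13 were, against 10.4%.

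Of 10 further autophagy factors, among them ATG38 and ATG41, 5 rose in experiment 1, 4 in WT of experiment 2 and 4 in HOG1-KO, or 50%, 40% and 40%, with median log2 changes of 0.31, 0.32 and 0.07. With the deviating libraries left out, 5 rose in WT of experiment 2, and 4 rose and 2 fell in HOG1-KO. NVJ1, a nucleus-vacuole junction protein of piecemeal microautophagy of the nucleus, rose by 2.01, 1.70 and 0.80, and its response was smaller in HOG1-KO (-0.90, adjusted p = 0.00963). ATG38, a subunit of the lipid kinase complex, rose by 0.76, 0.88 and 1.20. CUE5, a receptor for ubiquitinated proteins, rose by 0.94, 0.77 and 0.42. ATG41, which works in the traffic of Atg9, differed in the other direction: it was not called in experiment 1 (-0.16), rose by 0.70 in WT and by 1.90 in HOG1-KO of experiment 2, and was called with a larger response in HOG1-KO (1.20, adjusted p = 0.0289).

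Of 16 vacuole fusion genes, 7 rose and 1 fell in experiment 1, 10 and 0 in WT of experiment 2, and 8 and 1 in HOG1-KO. The rises were 43.8%, 62.5% and 50% of the list, and without the deviating libraries 10 rose and 1 fell in WT and 9 and 2 in HOG1-KO. The largest called changes in WT of experiment 2 were those of the SNAREs NYV1 (0.98) and VTI1 (0.84) and of MON1 and VPS33 (0.75 and 0.74), which act in tethering at the vacuole. None of the 16 was called for a difference in response between strains with edgeR, where 5.24% of all genes were called lower and 4.57% higher. An unadjusted p under 0.05 was found for 0 of the 16 and for 1269 of all 6107 genes.

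Of 18 genes of TORC1, the kinase complex that restrains autophagy in rich medium, and its regulators, 5 rose and 1 fell in experiment 1, 7 and 2 in WT of experiment 2, and 7 and 3 in HOG1-KO. The rises were 27.8%, 38.9% and 38.9% of the list, below the share of all genes in experiment 1 and above it in experiment 2, with no test of either. Leaving out the deviating libraries of experiment 2, 8 rose and 3 fell in WT and 8 and 4 in HOG1-KO, and the strain difference of NPR1 (-0.63) was then called (adjusted p = 0.00358). NPR1, a kinase downstream of TORC1, rose by 1.06, 1.25 and 0.64, LST8, a TORC1 subunit, by 0.65, 1.11 and 0.96, and NPR2, an inhibitor of TORC1, by 0.47, 0.82 and 0.73. SCH9, a TORC1 substrate kinase, fell by 0.72, 1.02 and 1.06. Of 13 transcriptional and kinase regulators of ATG genes, 8 rose and 1 fell, 6 and 1, and 7 and 2 in the same order, with rises of 61.5%, 46.2% and 53.8%. The fit that left out the deviating libraries gave 7 and 1 in WT and 8 and 2 in HOG1-KO. GCN4, the activator whose site was searched above, fell by 1.78, 1.53 and 1.21, and GAT1, a GATA activator, rose by 1.5, 1.26 and 1.35. MSN2, an activator that binds the STRE, rose by 1.74, 2.32 and 0.50, with a difference between strains of -1.82 (adjusted p = 1.91e-05). PHO23, a subunit of a histone deacetylase complex known as a repressor of ATG9, rose by 1.60 and 1.11 in WT and fell by 0.55 in HOG1-KO, a difference of -1.66 (adjusted p = 0.00202).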

How the data were processed

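Polyadenylated RNA from 18 whole cultures was sequenced as single-end 50 bp reads, per the labels' protocols: 6 libraries of experiment 1 with a TruSeq stranded mRNA kit and 12 of experiment 2 with a Lexogen CORALL kit. The authors deposited 2 tables of raw read counts per gene; HISAT2 2.1.0, featureCounts 1.5.1 and the R64 genome are named in the submitters' processing notes. No source used here gives the annotation release, the strand setting or the treatment of multi-mapping reads. The labels call the replicates biological triplicates. Counts between replicates differed by more than sampling noise (chi-square per degree of freedom 6.34 to 168), so none was merged.

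Counts were tested with edgeR 4.0.16 in R 4.3.3: TMM scaling, the low-count filter filterByExpr, a robust quasi-likelihood F test, two-sided, with Benjamini-Hochberg adjustment over all genes tested and a call at adjusted p under 0.05. Each experiment was fitted with 1 coefficient per group, and the WT responses of the experiments in a fit of their 12 WT libraries. DESeq2 1.42.0 and other scalings, filters and subsets were alternatives. The scripts were tested on simulated data. All 34 members, and up to 4 genes per further list with the largest called change in WT of experiment 2, may be named. The members and lists were chosen with earlier results of these data known. HOG1-KO libraries of the same replicate number deviated alike (same-number correlations of deviations 0.214 to 0.396 over 5867 genes), and WT ones did not. Unlike numbers gave -0.338 to 0.0603 in HOG1-KO. In WT of experiment 1 a pair of unlike numbers reached 0.601, so such values do not establish that the HOG1-KO libraries were paired. Upstream windows were read from the RefSeq R64 genome, in which 6048 of the 7126 identifiers were found.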

Additional observations from a re-analysis of the deposited data

Results flagged for a closer look

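The test of the difference between the salt responses of HOG1-KO and WT called 7 autophagy genes, and each had the smaller log2 response in HOG1-KO. The differences were -0.89 for ATG1, -0.80 for ATG13, -1.25 for ATG29, -1.07 for ATG9, -1.14 for ATG2, -1.11 for ATG7 and -1.22 for ATG39. For ATG1 and ATG39 the larger part lay before salt. HOG1-KO minus WT was 0.51 and 0.78 in basal cells and -0.38 and -0.44 in salt. With all libraries, edgeR called none of these strain differences. Over all genes, 5.24% were called with a smaller and 4.57% with a larger response in HOG1-KO.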

How the results depend on the processing

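Up to 21 alternatives were run per comparison, and no value changed direction among those called. Of the genes called, 21 of 29 in experiment 1, 21 of 25 in WT of experiment 2, 17 of 22 in HOG1-KO, 3 of 8 between strains in salt and 1 of 7 for the difference of the responses held in every alternative. Against a 1.5-fold threshold (glmTreat) 0 genes were called lower in salt in each of the 3 salt comparisons, 0 higher and 3 lower between strains in salt, and 1 for the difference of responses. In the fits with a replicate block, the counts of lower genes were 1 in experiment 1, 0 in HOG1-KO and 4 for the difference of responses; the numbers did not pair the WT libraries (same-number correlations of -0.623 to 0.654), and other calls the block ended stand beside their results. Total counts alone gave 0 lower in HOG1-KO and 2 for the difference of responses; this scaling moved the median log2 of all genes in experiment 2 to 0.21 in WT and 0.19 in HOG1-KO, between strains to 0.17 before and 0.16 in salt, and between experiments to 0.22. The filter of at least 10 CPM in 3 libraries gave 1 lower in experiment 1 and 0 in HOG1-KO. With only the libraries compared, 0 were higher between strains in salt; this setting gives no value for experiment 1 or for the differences of responses. Without the 2 deviating libraries the counts were 1 higher and 3 lower between strains before salt, 2 and 15 in salt, and 1 and 2 between experiments. Leaving out 1 library at a time gave 1 to 2 lower in experiment 1, 0 to 1 lower in HOG1-KO, 0 to 1 higher between strains in salt, 4 to 7 lower and 0 to 2 higher for the difference of responses, and 0 to 1 higher between experiments. Within 150 bases 11.8% of the genes held a STRE and 0% a Gcn4 site, against 11.1% and 3.22% of all promoters, and on the gene strand alone 0% held a URS1 core, against 2.62%. With 3 libraries per group and as few as 8 counts for a gene, differences of responses have wide intervals for the low transcripts.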

Other observations

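ATG34 and ATG19 are neighbours on chromosome XV on the same strand, 1774 bp apart, and encode related receptors. Both rose in salt in all 3 comparisons, ATG34 by 1.90, 1.51 and 0.96 and ATG19 by 2.18, 2.20 and 1.68 on the log2 scale in WT of experiment 1, WT of experiment 2 and HOG1-KO.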
